A study of Mus musculus with 20 samples.

Results

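The family of miR-148 and miR-152 in the mouse comprises 3 hairpin genes, Mir148a, Mir148b and Mir152, and the 6 mature strands cut from them: mmu-miR-148a-5p, mmu-miR-148a-3p, mmu-miR-148b-5p, mmu-miR-148b-3p, mmu-miR-152-5p and mmu-miR-152-3p. All 6 of 6 strands asked for by name were present in all 6 deposited tables, among 1481 mature miRNA features in the series. The family was selected on measured values of these libraries, the lower level of miR-148a-5p after oxygen-glucose deprivation (OGD), and its other strands were taken by name. Every comparison of OGD with normoxia is therefore given below as a description, with no p-value for any member and nothing drawn from how many members passed the threshold there. The genotype comparisons did not define that choice and are tested. For miR-148a-5p, however, those that involve OGD are computed from the same OGD values that led to the choice, and their p-values are read with that limit.

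Small RNA was sequenced from cortical neurons taken from mouse embryos on embryonic day 15 and grown for 7 days in culture. Wild-type neurons were compared with neurons lacking ciRS-7 (Cdr1as), a circular RNA abundant in neurons and known for its many sites for miR-7; all samples, wild type included, carry the strain label C57BL/6N-Cdr1asem1Nikr. Neurons of each genotype spent 12 h either in normoxia (5% CO2, 37 °C, medium with 25 mM D-glucose and 0.2 mM sodium pyruvate) or in OGD (1% O2, 5% CO2, 37 °C, the same base medium without these additions), a model of ischaemia in a dish. The 4 groups are wild-type normoxia, wild-type OGD, knockout normoxia and knockout OGD, each with 5 biological replicates, hence 20 libraries. The labels do not say which embryos or cultures the replicates came from, so the p-values measure the spread between these samples. ciRS-7 itself was not analysed here.

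A miRNA hairpin is cut by Drosha and Dicer into a short duplex of a 5p and a 3p strand. One strand, the guide, is retained by an Argonaute protein, and the other, the passenger, is mostly degraded. The guide recognises messenger RNAs chiefly through its seed, the bases 2 to 8 counted from the 5′ end. In this family the 3p strands are the guides, and the DNA methyltransferase Dnmt1 is a well-known target of them.

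The mature sequences are shown because the strands that share a seed behaved differently below. They are RefSeq sequences on GRCm38.p6, written 5′ to 3′ with the seed in capitals.
miR-148a-3p: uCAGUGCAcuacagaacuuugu
miR-148b-3p: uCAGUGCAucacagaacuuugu
miR-152-3p: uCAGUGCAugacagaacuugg
miR-148a-5p: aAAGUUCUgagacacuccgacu
miR-148b-5p: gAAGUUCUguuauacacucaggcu
miR-152-5p: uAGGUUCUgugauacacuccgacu

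The 3 guide strands share 1 seed and begin with U. Relative to miR-148a-3p, and counting from 1 at the 5′ end, miR-148b-3p carries C9U and U10C over 22 bases. Over the 21 bases compared, miR-152-3p carries C9U, U10G and U20G relative to miR-148a-3p. The passenger strands miR-148a-5p and miR-148b-5p share another seed, which miR-152-5p does not have. A mature sequence was matched for 1248 of the 1481 features (84.3%), and no matched feature outside the family had either of these seeds. How the authors' counting divided reads between strands this alike is not stated in the sources used here, so the split between miR-148a-3p and miR-148b-3p carries that uncertainty.

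The hairpins are shown with both mature strands in capitals, since the comparison of the 2 arms of 1 hairpin is what follows.
Mir148a: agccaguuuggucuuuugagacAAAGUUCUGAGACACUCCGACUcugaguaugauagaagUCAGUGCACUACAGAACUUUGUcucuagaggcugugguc
Mir148b: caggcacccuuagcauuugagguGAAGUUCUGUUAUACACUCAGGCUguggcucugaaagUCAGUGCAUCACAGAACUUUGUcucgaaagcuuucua
Mir152: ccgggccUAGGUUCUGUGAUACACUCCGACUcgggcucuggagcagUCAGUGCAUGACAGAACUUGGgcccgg

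Mir148a lies at chr6:51269812-51269910 on the minus strand and overlaps no other annotated gene; the nearest protein-coding gene, Nfe2l3, is 162760 bases away. Mir148b, at chr15:103285125-103285221 on the plus strand, sits in an intron of Copz1. Mir152, at chr11:96850393-96850465 on the plus strand, sits in an intron of Copz2. Copz1 and Copz2 encode the 2 forms of the zeta subunit of the COPI vesicle coat, and both are on the same strand as their miRNA (GENCODE M21, GRCm38).

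Levels are CPM, reads scaled to a library of 1000000, computed from whole reads worked back from the deposited values. The libraries held between 1160582 and 12477032 reads in all, and OGD libraries were shallower on average than normoxic ones in both genotypes. In knockout the depths did not overlap, at 1811589 to 3119212 reads after OGD and 5884616 to 12477032 in normoxia. In wild type they were 1160582 to 4374002 and 2492065 to 9117862 reads. The shallowest normoxic library was wild-type replicate 5. A floor of 3 reads corresponds to 0.249 to 2.55 CPM, and intervals and floors cover counting error only. The 6 of 6 neuronal miRNA markers listed summed to 292975 to 389896 CPM per library. Most of this was miR-9-5p, at 265284 CPM on average, which neural progenitors and glia also express; miR-128-3p averaged 52053 CPM and miR-124-3p 4520 CPM. Of other cells, the 4 of 4 markers listed for microglia and blood summed to 0.743 to 5.59 CPM. One library stood apart from its label. On the first principal component of 423 features, which held 83.0% of the variance, wild-type normoxic replicate 5 lay at -0.88, the other 4 libraries of its group between -14.46 and -13.09, knockout normoxic libraries between -14.46 and -6.46, and the OGD libraries between 7.00 and 15.05. Its effect on the wild-type normoxic values is given beside the results below.

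The family spanned a wide range of levels, in an order that held in every library. Over the 20 libraries miR-148a-3p averaged 7022 CPM, which made it feature 22 of 1481 by abundance. It was followed by miR-148b-3p at 1569 CPM (rank 59), miR-152-3p at 122 CPM (rank 200), miR-148b-5p at 36.7 CPM (rank 306), miR-148a-5p at 14.7 CPM (rank 373) and miR-152-5p at 1.65 CPM (rank 622). Each strand was above the next in 20 of 20 libraries, so no neighbours in this order overlapped within a library. Every 3p strand thus exceeded its own 5p partner. The 6 strands together were set against the library size given by the authors' library factors. They took 0.928% ± 0.107 of that size in wild-type normoxia (SD, n = 5; 0.888% without replicate 5) and 0.858% ± 0.0991 in wild-type OGD. In knockout they took 0.904% ± 0.0853 in normoxia and 0.816% ± 0.101 after OGD. That size was 0.923 to 1.08 times the total reads of a library, so these are not exact shares of all reads.

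**Figure D1:**
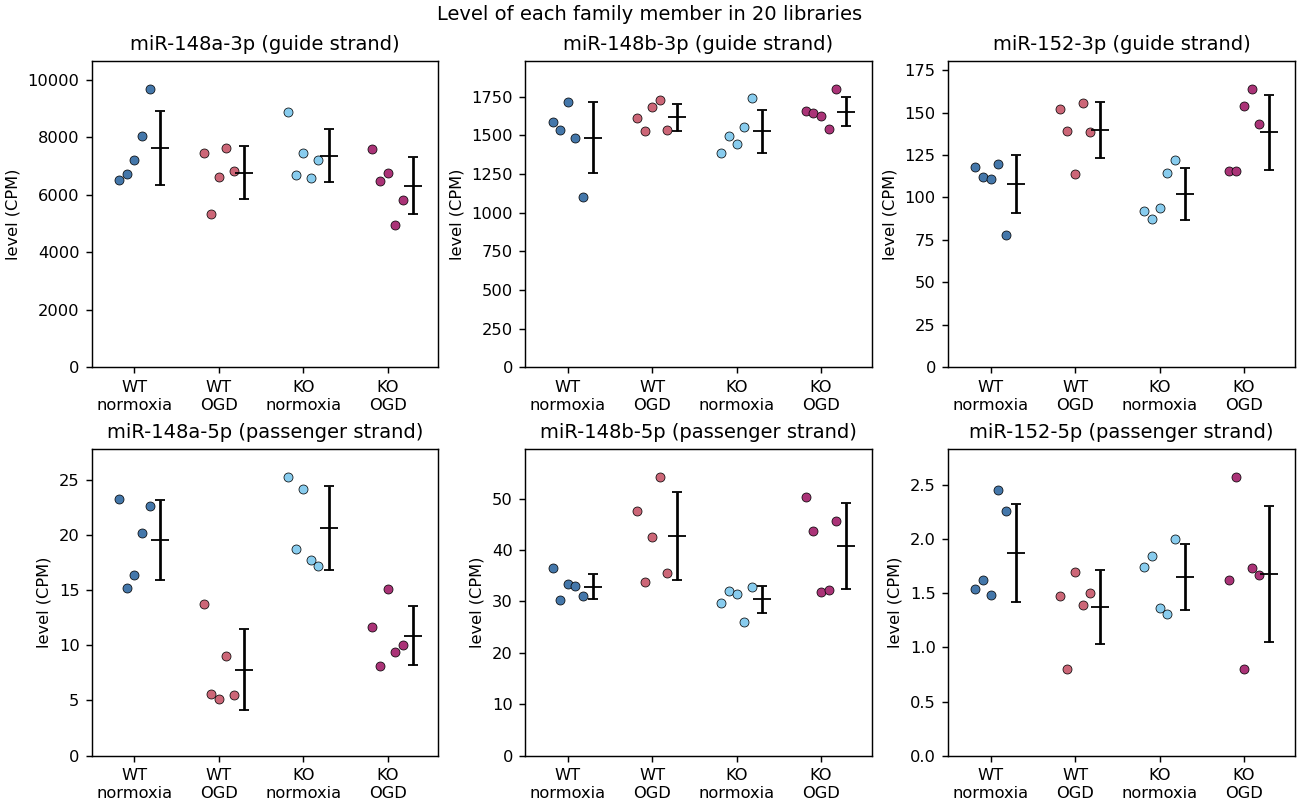
Level in CPM of each of the 6 strands (vertical axis, from 0) in the 4 groups of 5 libraries; points are libraries in order of replicate number, and the bar beside them is the mean ± SD. The miR-148a-5p panel has the OGD points of each genotype below all of its normoxic points, which the other panels do not.

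The passenger strand miR-148a-5p was lower after OGD in both genotypes, without overlap between groups. In wild-type normoxia it was at 23.3, 15.2, 16.3, 20.2 and 22.7 CPM in replicates 1 to 5, and after OGD at 13.8, 5.62, 5.10, 9.04 and 5.52 CPM. Every wild-type OGD library was below every normoxic one, which held for 1 of 6 members and for 2.57% of all features tested; OGD replicate 1 lay nearest to the normoxic libraries. In knockout neurons the values were 25.3, 18.7, 24.2, 17.8 and 17.2 CPM in normoxia and 11.7, 8.16, 15.2, 9.37 and 10.03 CPM after OGD, again without overlap in this direction for 1 of 6 members, against 3.79% of all features. The group means went from 19.6 ± 3.64 to 7.81 ± 3.68 CPM in wild type, 39.9% of the normoxic level (41.6% without wild-type normoxic replicate 5), and from 20.6 ± 3.80 to 10.9 ± 2.71 CPM in knockout (SD, n = 5), 52.7% of it. In bulk cultures, fewer cells of a type and less RNA per cell cannot be told apart.

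On the scale of log2(CPM + 0.5), on which differences of rare strands come out too small, the difference of miR-148a-5p after OGD was -1.35 (SE 0.26, limma) in wild type and -0.91 (SE 0.18) in knockout. These values rest on few reads: 60 to 196 per wild-type normoxic library and 6 to 56 per wild-type OGD library, and 142 to 304 and 18 to 38 in knockout. The 6 reads of wild-type OGD replicate 3 correspond to 1.87 to 11.1 CPM (exact 95% Poisson interval). With all libraries thinned to 1160582 reads the difference was -1.24 in wild type and -1.01 in knockout.

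Its guide strand, miR-148a-3p, showed a smaller difference, whose size depended on the scaling of the libraries given further below. In wild-type normoxia it was at 6522, 6729, 7217, 8044 and 9679 CPM, and after OGD at 7453, 5317, 6619, 7631 and 6829 CPM. In knockout neurons it was at 8864, 6694, 7463, 6585 and 7203 CPM in normoxia and at 7599, 6491, 6742, 4941 and 5826 CPM after OGD. The groups overlapped in both genotypes, and the highest wild-type value was that of normoxic replicate 5. The log2 difference was -0.17 (SE 0.12, 95% interval -0.42 to 0.08) in wild type, and -0.08 without that replicate; in knockout it was -0.23 (SE 0.11, interval -0.46 to 0.01). The knockout value was -0.14 without OGD replicate 4 and -0.30 without OGD replicate 1, the extremes when each library was left out.

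The other passenger strand with the same seed, miR-148b-5p, lay in the opposite direction to miR-148a-5p. Its wild-type values were 36.5, 30.4, 33.4, 33.1 and 31.0 CPM in normoxia and 47.7, 33.7, 42.5, 54.2 and 35.6 CPM after OGD. Its knockout values were 29.8, 32.0, 31.4, 26.1 and 32.8 CPM in normoxia and 50.4, 43.8, 31.9, 32.3 and 45.7 CPM after OGD. In each genotype 3 of 5 OGD libraries were above every normoxic one, and the groups overlapped. The log2 difference was 0.36 (SE 0.16) in wild type and 0.40 (SE 0.15) in knockout, and the wild-type value 0.33 without normoxic replicate 5, but they were -0.21 and -0.11 with libraries centred on their medians.

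The summed level of both strands with this seed differed little between groups on the authors' library factors, while its make-up, which no scaling alters, was different after OGD. Their sum was 52.4 ± 5.24 CPM in wild-type normoxia and 50.6 ± 11.2 CPM after OGD (SD, n = 5), and 51.1 ± 4.73 and 51.7 ± 7.85 CPM in knockout. The part of it from miR-148a-5p was 32.8% to 42.3% in wild-type normoxia (to 39.0% without replicate 5) and 10.7% to 22.4% after OGD, and 34.4% to 45.9% and 15.7% to 32.2% in knockout. These ranges do not overlap within either genotype, but they rest on the OGD values for which miR-148a-5p was chosen. With median-centred libraries the sum was lower after OGD, by a mean log2 difference of -0.63 in wild type (-0.61 without normoxic replicate 5) and -0.48 in knockout.

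The guide strands miR-148b-3p and miR-152-3p were at or above their normoxic level after OGD on the CPM scale. The mean of miR-148b-3p was 1484 ± 229 CPM in wild-type normoxia and 1615 ± 87.7 CPM after OGD (SD, n = 5), and 1525 ± 137 and 1652 ± 94.7 CPM in knockout. Its log2 differences were 0.14 (SE 0.11) and 0.12 (SE 0.08), and the wild-type value was 0.03 without normoxic replicate 5, whose 1104 CPM was the lowest of all 20 libraries. For miR-152-3p the wild-type libraries were at 118, 112, 111, 120.0 and 77.8 CPM in normoxia and at 152.1, 139, 114, 156 and 139 CPM after OGD. The knockout libraries were at 92.1, 87.1, 93.9, 115 and 122 CPM in normoxia and at 116, 116, 154, 164 and 143 CPM after OGD. In wild type 4 of 5 OGD libraries, and in knockout 3 of 5, were above every normoxic one. The log2 difference of miR-152-3p was 0.38 (SE 0.14) in wild type, 0.27 without normoxic replicate 5, and 0.44 (SE 0.13) in knockout.

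The rarest strand, miR-152-5p, had 2 to 21 reads per library, so its values carry a wide counting error. It was at 1.49 to 2.46 CPM in wild-type normoxia, 0.804 to 1.70 CPM in wild-type OGD, 1.31 to 2.003 CPM in knockout normoxia and 0.798 to 2.58 CPM in knockout OGD. Summed over libraries, 15 reads after OGD and 57 in normoxia gave a ratio of 0.764 in wild type (exact 95% counting interval 0.402 to 1.37). In knockout, 21 and 77 reads gave 1.00 (0.587 to 1.64).

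The direction of the differences of miR-148b-5p, miR-148b-3p and miR-152-3p depended on the scaling of the libraries, and that of both strands of miR-148a did not. Centring each library on its median lowered all OGD differences by 0.56 in wild type and 0.51 in knockout (log2), the shift of the median over features averaging 3 or more on that scale. This shift is the same for every strand. A negative difference therefore could not turn with it, and a positive one smaller than the shift had to. With centring the split of calls over all features turned over, from 276 higher and 65 lower to 108 and 265 in wild type, and from 278 and 85 to 112 and 324 in knockout. The differences of miR-148b-3p were then -0.43 and -0.39, those of miR-152-3p -0.18 and -0.07, those of miR-148a-3p -0.73 and -0.74, those of miR-152-5p -0.90 and -0.53, and those of miR-148a-5p -1.91 and -1.42. With an adjusted p under 0.05 as the call (limma, Benjamini-Hochberg over all features), 1 of 6 members passed in wild type, miR-148a-5p, for which the choice of the family fixed the outcome in both genotypes. Of the 1478 features tested, 23.1% were called, and 4.4% were called and lower. In knockout, besides that strand, lower, miR-152-3p passed, higher, which made 2 of 6, where 24.5% of 1479 features were called, 5.75% lower and 18.8% higher. With median-centred libraries both strands of miR-148a and miR-148b-3p were called, all lower, in each genotype, and miR-152-5p was called lower in wild type. The knockout call of miR-152-3p did not hold in 5 of the 10 fits with a single library removed: without knockout normoxic replicate 1, 2 or 3, where the count was 1, and without knockout OGD replicate 3 or 4, where miR-148b-5p was called instead. In wild type, without OGD replicate 3 the count was 2. The median log2 difference of the members was -0.02 in wild type and 0.05 in knockout, against 0.32 and 0.24 over all features tested. Among features at a mean of at least 3, without miR-152-5p, it was 0.14 against 0.22 in wild type and 0.12 against 0.20 in knockout.

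**Figure D2:**
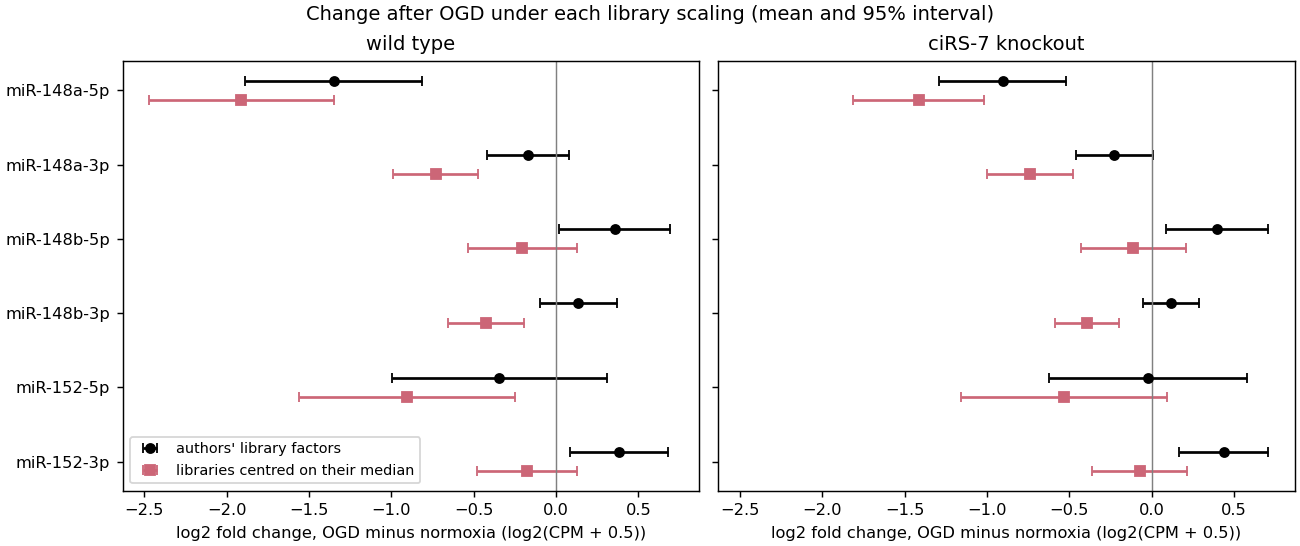
Log2 fold change after OGD (horizontal axis, log2(CPM + 0.5)) of the 6 strands in wild-type and knockout neurons, with limma's 95% intervals, on the authors' library factors (circles) and with median-centred libraries (squares). The squares lie 0.56 (wild type) or 0.51 (knockout) to the left of the circles, which leaves the order of the strands the same. The lowest value is that of miR-148a-5p, for which the family was chosen.

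The ratio of reads between the arms of 1 hairpin within a library does not depend on the scaling. For miR-148a, 280, 441, 442, 398 and 427 reads of the guide were found for each read of the passenger in wild-type normoxic replicates 1 to 5, and 542, 945, 1299, 844 and 1237 after OGD. In knockout neurons these ratios were 351, 358, 308, 371 and 418 in normoxia and 649, 795, 445, 527 and 581 after OGD. Every OGD library had more guide per passenger read than every normoxic library of its genotype. This too rests on the miR-148a-5p values for which the family was chosen, and overlap was not counted in hairpins outside the family. Log2 differences between arms are taken on log2(CPM + 0.5), so for rare strands the pseudocount ties them in part to depth and scaling: wild-type OGD replicate 3, with 1299 guide reads per passenger read, was at -10.21. The log2 level of miR-148a-5p minus that of miR-148a-3p went from -8.58 ± 0.27 to -9.76 ± 0.47 in wild type (SD, n = 5), a difference of -1.18 (-1.21 without normoxic replicate 5), and from -8.45 ± 0.15 to -9.13 ± 0.30 in knockout, a difference of -0.68.

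The arms of miR-148b differed the other way and with overlap. Their log2 difference went from -5.46 ± 0.21 to -5.24 ± 0.22 in wild type and from -5.62 ± 0.16 to -5.34 ± 0.25 in knockout (SD, n = 5), and the passenger strand took 1.65% to 3.05% of the reads of both arms in the 20 libraries. The wild-type difference was 0.22, or 0.30 without normoxic replicate 5. For miR-152 the values went from -5.51 ± 0.43 to -6.24 ± 0.38 and from -5.57 ± 0.30 to -6.03 ± 0.61, with overlap in both genotypes. The wild-type difference of miR-152 was -0.73, or -0.55 without that replicate. These values of miR-152 rest on the few reads of its passenger strand, and after thinning the knockout difference was 0.066 instead of -0.46.

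**Figure D3:**
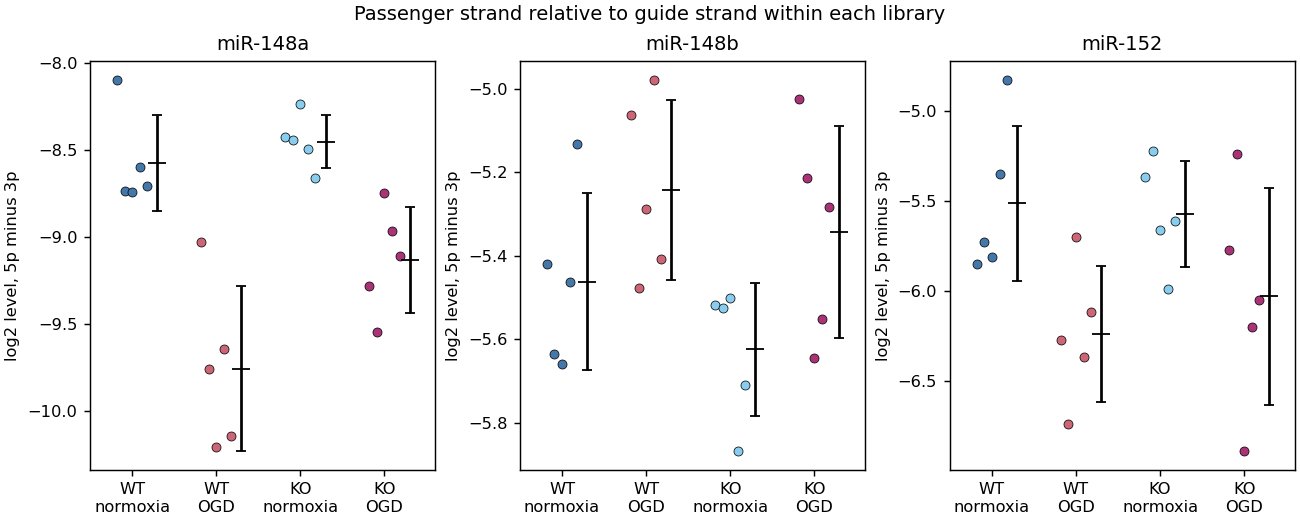
Log2 level of the 5p strand minus that of the 3p strand of each hairpin (vertical axis, log2 units, not from 0) in the 4 groups; points are libraries and bars the mean ± SD. For miR-148a the OGD libraries of each genotype lie below all normoxic ones, while the groups overlap for miR-148b and miR-152.

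The same measure was taken for 100 hairpins whose 2 arms both had a mean log2(CPM + 0.5) of at least 3, as the change after OGD of the minor arm relative to the major arm. The median change was 0.08 in wild type and 0.06 in knockout. Ordered by the mean over genotypes, miR-148a came 11 of 100 from the lowest and miR-148b 64 of 100; miR-152 did not pass the level filter. The lowest were miR-410 (-3.73 in wild type and -3.81 in knockout), miR-124 (-1.89 and -1.67) and miR-30b (-1.90 and -1.52), and the highest were miR-485 (2.40 and 2.30), miR-212 (1.86 and 1.55) and miR-130b (1.79 and 1.62). In 41 hairpins the minor arm was lower relative to the major arm in both genotypes, as for miR-148a, and in 48 it was higher in both, as for miR-148b.

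**Figure D4:**
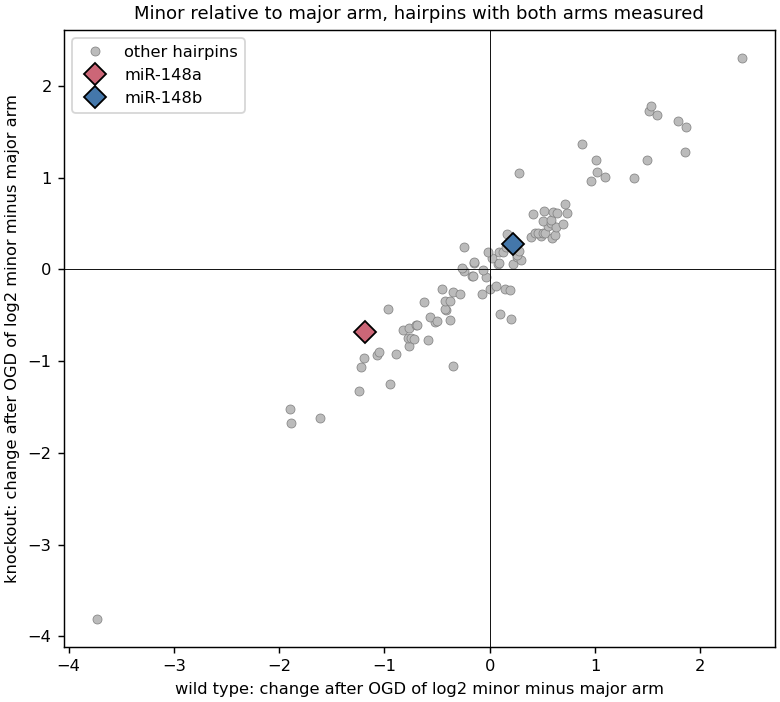
Change after OGD of the log2 minor arm minus the log2 major arm in wild-type (horizontal axis) and knockout neurons (vertical axis) for 100 hairpins. The diamond of miR-148a sits at -1.18 and -0.68, inside the spread of the other hairpins, and that of miR-148b at 0.22 and 0.28.

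The make-up of the guide strands, also free of the scaling, had miR-148a-3p as the larger part in every library. Its share of the summed CPM of the 3 guides was 79.3%, 80.3%, 79.8%, 83.4% and 89.1% in wild-type normoxia, where replicate 5 stood highest, and 80.9%, 76.2%, 78.7%, 80.2% and 80.3% after OGD. In knockout it was 85.7%, 80.9%, 82.9%, 79.8% and 79.4% in normoxia and 81.1%, 78.7%, 79.2%, 74.4% and 75.0% after OGD. The means differed by -3.14 percentage points in wild type, or -1.46 without normoxic replicate 5, and by -4.08 points in knockout, with overlap in both. The share of miR-152-3p went from 1.19% ± 0.278 to 1.65% ± 0.226 in wild type and from 1.14% ± 0.214 to 1.75% ± 0.478 in knockout (SD, n = 5), also with overlap; without normoxic replicate 5 the wild-type normoxic mean was 1.31%. The summed guides were at 9229 ± 1074 CPM in wild-type normoxia (8821 CPM without replicate 5) and 8525 ± 981 CPM after OGD, and at 8989 ± 850 and 8110 ± 1006 CPM in knockout.

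**Figure D5:**
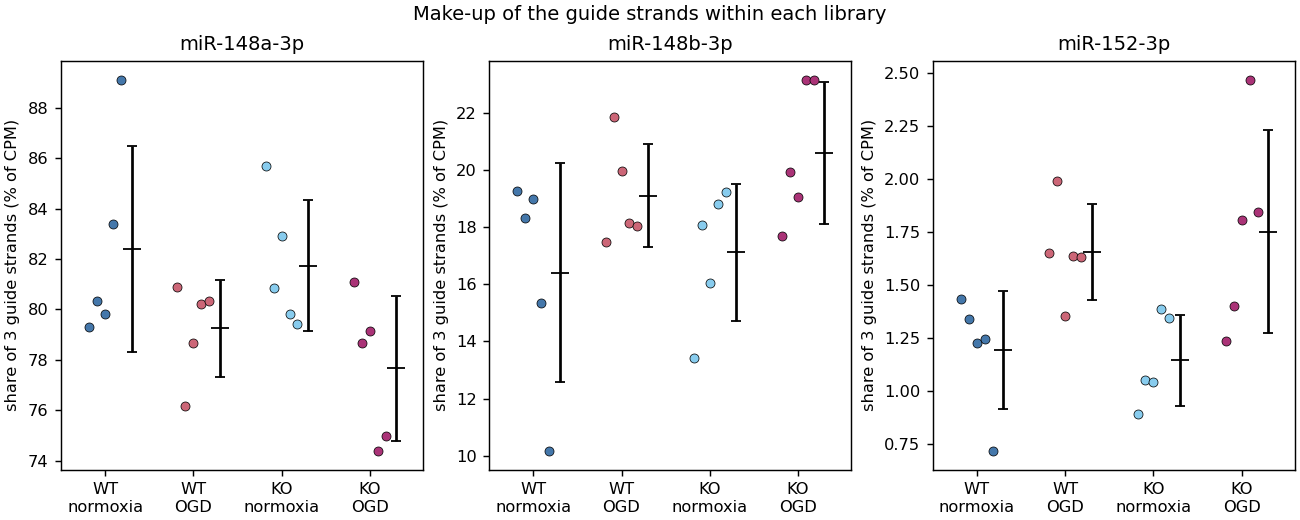
Share of each guide strand in the summed CPM of the 3 (vertical axes, percent, not from 0) in the 4 groups; points are libraries and bars the mean ± SD. Wild-type normoxic replicate 5 is the highest point for miR-148a-3p, at 89.1%, and the lowest for miR-148b-3p and miR-152-3p.

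Loss of ciRS-7 was not accompanied by a detectable difference in any family member in normoxia. In the limma fit 0 of 6 members had an adjusted p under 0.05, 0 had an unadjusted p under 0.05, and limma voom on the recovered reads also called 0; over all features 0% were called, with 47 of 1481 at an unadjusted p under 0.05. The genotypes did not overlap in 0.54% of features and overlapped in all 6 members. The knockout minus wild-type difference (log2) was 0.08 (95% interval -0.27 to 0.42) for miR-148a-5p, -0.05 (-0.30 to 0.20) for miR-148a-3p and -0.11 (-0.34 to 0.12) for miR-148b-5p. For miR-148b-3p it was 0.05 (-0.19 to 0.29), for miR-152-3p -0.08 (-0.37 to 0.22) and for miR-152-5p -0.13 (-0.61 to 0.34). Differences of 1.5-fold lie outside these intervals for all members but miR-152-5p. Without wild-type normoxic replicate 5, the difference was 0.13 for miR-148a-5p, 0.043 for miR-148a-3p, -0.13 for miR-148b-5p, -0.052 for miR-148b-3p, -0.073 for miR-152-5p and -0.19 for miR-152-3p.

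After OGD the largest genotype difference in the family was that of miR-148a-5p, and it did not pass the correction. Against 7.81 ± 3.68 CPM in wild-type libraries, knockout libraries averaged 10.9 ± 2.71 CPM (SD, n = 5), a log2 difference of 0.52 (SE 0.27, interval -0.03 to 1.08, limma p 0.065, adjusted p 0.695). Only 1 knockout library, at 15.2 CPM, was above the highest wild-type one, at 13.8 CPM. Over the alternatives tried, leaving out each library included, the adjusted p ran from 0.213 to 0.887. Again 0 of 6 members were called by limma (0% of all features), 0 had an unadjusted p under 0.05 and limma voom called 0. With median-centred libraries, on the deposited values, or without wild-type OGD replicate 1 or 4 or knockout OGD replicate 2, 1 of 6 members, miR-148a-5p, had an unadjusted p under 0.05, and 0 members were called. In that order, these fits had 122, 278, 138, 122 and 91 of 1481 features at an unadjusted p under 0.05. On the deposited values 72 features were called, and without knockout OGD replicate 5, 22 were. The main limma fit had 108 of 1481 features at an unadjusted p under 0.05. Genotypes did not overlap in 0.945% of features and in 0 of 6 members. The other 5 members differed by -0.10 to 0.19 (log2).

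The difference between arms was also compared between genotypes. After OGD, miR-148a-5p relative to miR-148a-3p was higher in knockout than in wild-type neurons by 0.63 on the log2 scale, with an exact two-sided permutation p of 0.0476, which became 0.286 after Benjamini-Hochberg adjustment over the 6 tests of 3 hairpins in normoxia and OGD. In normoxia the difference was 0.12 (exact permutation p 0.405, adjusted p 0.638). The hairpins miR-148b and miR-152 differed by -0.16 and -0.06 in normoxia and by -0.10 and 0.21 after OGD, with adjusted p of 0.638 to 0.810 in the exact permutation tests. Without wild-type normoxic replicate 5 the normoxic differences were 0.092 for miR-148a, -0.080 for miR-148b and 0.11 for miR-152. The shares of the 3 guide strands differed between genotypes by -1.59 to 1.49 percentage points, and all 6 exact permutation tests gave an adjusted p of 0.810. Without that replicate the normoxic differences were 1.03, -0.86 and -0.167 points for miR-148a-3p, miR-148b-3p and miR-152-3p.

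Whether the OGD response of the family differed between genotypes was tested as an interaction over all 20 libraries. For miR-148a-5p the response was smaller by 0.45 in knockout (log2, SE 0.32, interval -0.22 to 1.11), with a limma adjusted p of 0.99; this is a difference between the very responses on which the family was selected. The other members had interactions of -0.06 to 0.32. In limma 0 of 6 members (0% of all features) were called, 0 had an unadjusted p under 0.05 and limma voom called 0; over all features 74 of 1481 had an unadjusted p under 0.05. Without wild-type OGD replicate 1 the interaction of miR-148a-5p was 0.67, and it was the 1 member with an unadjusted p under 0.05. In that fit 87 of 1481 features had an unadjusted p under 0.05, and 1 that is no member was called.

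The features most like miR-148a-5p over the 20 libraries were, by the rule set out with the methods, miR-30b-3p (Pearson's r 0.910), miR-410-5p (0.861), miR-125b-1-3p (0.852) and miR-153-5p (0.849), of 418 compared. Having been picked for likeness to a strand that was itself chosen for its level after OGD, all 4 were lower after OGD in both genotypes, by -0.82 to -3.32 in wild type and -0.68 to -3.52 in knockout (log2). The likeness was weaker within groups: r of the deviations from the group means was 0.574, 0.498, 0.448 and 0.296. The libraries share depth and scaling, so these are descriptions.

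The features most like the guide strand miR-148a-3p were others: miR-126a-3p (r 0.753), miR-30f (0.691), miR-1981-5p (0.689) and miR-434-5p (0.655), over the same 20 libraries. Within groups, r was 0.708 for miR-126a-3p. That miRNA is a marker of endothelial cells, whose list (2 of 2 found, none at 0) summed to 310 to 387 CPM in wild-type normoxia, 294 to 381 CPM in wild-type OGD, 314 to 393 CPM in knockout normoxia and 269 to 343 CPM in knockout OGD. The part of such cells in the level of miR-148a-3p was not tested. Among the members themselves, r between miR-148a-5p and miR-148a-3p was 0.556 over the 20 libraries, and between miR-148b-3p and miR-152-3p 0.631, while miR-148a-3p and miR-152-3p had r of -0.587. Within groups these were 0.530, 0.547 and -0.453. Wild-type normoxic replicate 5 was the highest of the 20 libraries for miR-148a-3p and the lowest for miR-148b-3p and miR-152-3p. Correlations without it were not computed.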

How the data were processed

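The authors deposited 6 tables, 1 for each pair of groups, with 1470 to 1481 miRNA features. Their processing notes name the build mm10; aligner, counting and miRBase release are not given in the sources used here. The deposited values, called log CPM in the file names, reach 37.3, above the largest possible log2 CPM of 19.9, and are treated as a score. No label records how they were made. As worked out from the values, reads had been multiplied by a library factor and raised to a power shared by a table, and in each group the extremes had been limited at the quantiles 0.16 and 0.84. Inverting these steps gave whole reads (within 0.05) for 100% of values, and 59070 comparisons between tables gave 0 differences. The recovery and the limma fit were also tested on simulated data.

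CPM used the authors' library factors. limma 3.58.1 in R 4.3.3 (trend; two-sided; Benjamini-Hochberg over all features; threshold 0.05) was fitted to log2(CPM + 0.5) for the 10 libraries of each comparison, and to all 20 for the interaction. The planned test assumed log CPM values, so this scale, chosen after the data were seen, replaced the deposited one. Exact permutation tests (scipy 1.17.1) covered arms and shares. The 4 most alike features per strand, at a mean of at least 3, and the 3 hairpins at each end were named by rule. Members and lists were chosen with earlier results of these data known. Marker sums of oligodendrocytes (3 of 3 found) were 5.86 to 15.3 CPM and of smooth muscle and pericytes (2 of 2) 29.9 to 64.4 CPM. The oligodendrocyte medians in normoxia and after OGD were 9.07 and 11.0 CPM in wild type and 10.2 and 14.0 CPM in knockout. Those of smooth muscle and pericytes were 41.0 and 42.5 CPM in wild type and 44.0 and 40.4 CPM in knockout.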

Additional observations from a re-analysis of the deposited data

Results flagged for a closer look

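In the 48 sets of 5 libraries examined (6 strand levels, 3 arm differences and 3 guide shares in 4 groups), 3 had a library whose gap to the others exceeded Dixon's 95% limit of 0.71 of the range; chance flags about 1 set in 20. Wild-type normoxic replicate 5 was low for miR-152-3p, at 77.8 CPM against 111 to 120.0 CPM in the other 4 libraries. Its share of miR-152-3p among the guide strands was also low, at 0.716% against 1.23% to 1.43%. This is the library that lay apart on the first principal component. Wild-type normoxic replicate 1 was high for miR-148a-5p relative to miR-148a-3p, at -8.10 on the log2 scale against -8.74 to -8.60.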

How the results depend on the processing

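The OGD difference of miR-148a-5p, for which the family was chosen, was -2.03 to -1.23 (log2) in wild type and -1.46 to -0.81 in knockout over the alternatives and without each library in turn. The counts of members that passed the threshold after OGD are set beside those over all features and support nothing. In wild type, 1 member and 341 of 1478 features became 2 and 223 of 425 with the filter on low levels, 4 and 373 with median-centred libraries, 2 and 332 with quantile normalization, 2 and 693 by limma voom, 3 and 477 on the deposited values and 2 and 389 with the replicate block. In knockout, 2 members and 363 of 1479 features became 3 and 260 of 420 with the filter, 3 and 436 with centring, 1 and 327 with quantile normalization, 3 and 784 by limma voom, 1 and 230 with thinned reads, 4 and 476 on the deposited values and 4 and 403 with the block. Without each library in turn, the member count was 1 to 2 in both genotypes, beside 262 to 341 of 1478 features in wild type and 293 to 372 of 1479 in knockout. The deposited values have their extremes limited within groups. Other causes of these changes were not tested. No alternative called a member between genotypes or in the interaction. Some called other features of the 1481. Between genotypes in normoxia, 33 were called on the deposited values and 1 with thinned reads. After OGD, 72 were called on the deposited values and 22 without knockout OGD replicate 5. In the interaction, 2 were called with thinned reads and 1 without wild-type OGD replicate 1.

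Same-numbered normoxic and OGD libraries were not treated as pairs, since the labels tie the numbers to no shared culture or day and not every correlation of their deviations was above 0.1. The correlations ran from -0.17 to 0.66 in wild type and from -0.21 to 0.49 in knockout, positive in 8 of 10, and 3 of 5 and 2 of 5 libraries correlated best with their own number, a hint of shared numbers from the data only. With the replicate block, miR-152-3p was also called higher in wild type, and in knockout miR-148a-3p was also called lower and miR-148b-5p higher.

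Some differences changed direction. Centring shifts all differences of a comparison by the same amount, for OGD down by 0.56 in wild type and 0.51 in knockout. Positive OGD differences smaller than that turned with it. The cause of the other changes was not tested. With median-centred libraries the wild-type OGD differences of miR-148b-5p, miR-148b-3p and miR-152-3p were -0.21, -0.43 and -0.18, and the knockout ones -0.11, -0.39 and -0.073. With quantile normalization they were -0.22 for miR-148b-5p and -0.15 for miR-152-3p in wild type, and -0.18, -0.039 and -0.086 in knockout. The knockout difference of miR-152-5p was 0.070 by limma voom, 0.48 with thinned reads and 0.013 on the deposited score, and that of the miR-152 arms 0.066 with thinned reads. Between genotypes in normoxia, miR-148a-3p was at 0.043 with quantile normalization and miR-148b-3p at -0.0054 on the deposited score. After OGD, centring gave 0.013 for miR-148b-5p and 0.060 for miR-152-3p, and quantile normalization -0.033 for miR-148b-3p. The interaction under centring was 0.013 for miR-148a-3p and 0.051 for miR-148b-3p, and by limma voom 0.0067 for miR-148b-3p.

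Leaving out each library in turn, these values ranged across 0. For miR-152-5p the knockout OGD difference was -0.16 to 0.15. The genotype difference in normoxia was -0.0045 to 0.14 for miR-148a-5p, -0.12 to 0.043 for miR-148a-3p and -0.052 to 0.11 for miR-148b-3p. After OGD it was -0.15 to 0.022 for miR-148b-5p and -0.093 to 0.040 for miR-152-3p. The interaction was -0.15 to 0.029 for miR-148a-3p, -0.038 to 0.13 for miR-148b-5p, -0.074 to 0.084 for miR-148b-3p and -0.018 to 0.17 for miR-152-3p. The genotype difference of the miR-152 arms in normoxia was -0.14 to 0.11. Genotype differences in guide shares in normoxia were -1.64 to 1.03 percentage points for miR-148a-3p, -0.86 to 1.63 for miR-148b-3p and -0.167 to 0.015 for miR-152-3p, and after OGD -0.082 to 0.226 for miR-152-3p. The filtered fit gave no value for miR-152-5p, and the interaction none on the deposited values, whose tables hold 2 groups each. Depth limits miR-152-5p most, with 2 to 21 reads a library.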

Other observations

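The predicted folds of the 3 hairpins (RNAfold 2.7.2) differed in energy, at -41.0 kcal per mol for Mir148a, -30.9 for Mir148b and -43.5 for Mir152. In Mir148a 17 of the 22 bases of the 5p strand pair with the 3p strand, in Mir148b 15 of 24 and in Mir152 18 of 24. All of the first 4 bases of the 3p strand are paired in Mir148a and Mir152, and 1 of 4 in Mir148b. The longest run of bases shared by 2 passenger strands is not a seed but the 11 bases that end both miR-148a-5p and miR-152-5p.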
